A study of Mus musculus with 9 samples.

Results

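The genes described are those of the adhesion machinery that ties podocytes to the glomerular basement membrane: the integrin subunits Itga3, Itgb1, Itgav, Itgb3 and Itgb5, the integrin-linked kinase Ilk, the tetraspanin Cd151, dystroglycan (Dag1), vinculin (Vcl) and the urokinase receptor Plaur. Every probe set of the array whose platform annotation gives exactly 1 of these 10 symbols was taken, without regard to its values. This gave 34 probe sets of 10 genes, out of 45037 probe sets tested, of which those with a single symbol stand for 18193 genes. Podocytes came from 5 OVE26 diabetic mice (genotype OVE-GFP) and from 4 normal FVB mice (labelled wild type), all on the FVB strain background and 3 to 4 months old. OVE26 mice are a transgenic model of diabetes that begins early in life. According to the series' design text a podocyte eGFP transgene on FVB was crossed into OVE26, and the sort was on its fluorescence; the labels of the FVB mice do not name the transgene. Glomeruli were collected with magnetic beads and dissociated with trypsin before sorting, and the RNA was amplified, so a value stands for the RNA of sorted cells after digestion. The labels give no sex, litter, sort day or scan date.

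Podocytes are epithelial cells whose foot processes wrap the glomerular capillaries, and their main anchor to the laminin of the basement membrane is the integrin alpha3 beta1, a pair made of the Itga3 and Itgb1 products and stabilised by CD151. Inside the cell, ILK and vinculin belong to the link between the integrin tail and actin, while dystroglycan is a second, integrin-independent laminin receptor. Integrin alphav beta3 binds vitronectin and related ligands, and its activation by the urokinase receptor in podocytes has been studied as a route to foot process effacement.

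The promoter windows of Itga3, Itgb5 and Dag1 are printed because the brightest probe sets of these 3 genes had pairwise correlations of 0.65 to 0.79 over the 9 arrays (0.05 to 0.31 without OVE26 3 and FVB 3), and that of Plaur because its level ran against that of Dag1. Each window is the first listed for its gene in RefSeq (GRCm38.p6) and holds 250 bases before and 50 after the start site, 5′ to 3′ on the gene's strand: chr11:95076665-95076964 (minus strand) for Itga3, chr16:33829415-33829714 (plus strand) for Itgb5, chr9:108263909-108264208 (minus strand) for Dag1 and chr7:24462233-24462532 (plus strand) for Plaur. Capitals mark the GC box GGGCGG on either strand.
Itga3: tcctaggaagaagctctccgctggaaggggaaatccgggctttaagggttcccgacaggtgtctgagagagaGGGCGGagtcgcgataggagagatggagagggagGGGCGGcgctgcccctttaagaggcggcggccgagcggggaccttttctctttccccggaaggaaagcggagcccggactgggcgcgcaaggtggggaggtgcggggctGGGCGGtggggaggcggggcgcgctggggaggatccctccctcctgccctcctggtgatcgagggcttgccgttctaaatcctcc
Itgb5: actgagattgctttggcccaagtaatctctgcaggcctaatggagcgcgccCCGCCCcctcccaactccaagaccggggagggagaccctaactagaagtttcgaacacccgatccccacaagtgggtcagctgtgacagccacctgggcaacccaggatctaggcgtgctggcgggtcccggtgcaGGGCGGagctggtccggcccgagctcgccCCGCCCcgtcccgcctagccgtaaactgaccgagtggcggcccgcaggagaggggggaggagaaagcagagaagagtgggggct
Dag1: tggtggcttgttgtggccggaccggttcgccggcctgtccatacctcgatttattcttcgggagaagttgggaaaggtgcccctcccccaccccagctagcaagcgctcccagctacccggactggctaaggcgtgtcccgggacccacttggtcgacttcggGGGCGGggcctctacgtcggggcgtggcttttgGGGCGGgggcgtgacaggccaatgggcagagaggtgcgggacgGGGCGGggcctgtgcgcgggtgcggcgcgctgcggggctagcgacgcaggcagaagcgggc
Plaur: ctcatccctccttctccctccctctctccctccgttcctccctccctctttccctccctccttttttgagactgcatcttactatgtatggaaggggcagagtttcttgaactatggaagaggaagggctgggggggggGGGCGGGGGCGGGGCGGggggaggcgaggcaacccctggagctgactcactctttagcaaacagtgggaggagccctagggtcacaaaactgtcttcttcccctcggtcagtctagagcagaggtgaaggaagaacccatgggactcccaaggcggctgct
Each of the 4 windows held 3 GC boxes. Of all 32851 mouse windows of this length 35.7% held at least 1, and the share with 3 was not counted. The first windows of the members not printed held from 0 (Ilk) to 4 (Vcl). In Plaur the boxes ran head to tail, from base -111 to base -95 with the start site at +1. The AP-1 letters TGANTCA, searched on both strands, stood in the Plaur window at -69 to -63 and in none of the other windows printed, against 7.81% of all windows. The E box letters CANNTG, held by 72.3% of all windows, stood in the windows of Itga3, Itgb5 and Dag1. The letters TAATTA, held by 5.29% of all windows, and GCGTGGG, held by 5.04%, were in none of the 4. These matches describe the letters of the windows. In all, 9 of the 10 genes matched a window, 13 windows in total, and Itgb3 did not.

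The cells carried podocyte RNA in both groups. Nphs1, which encodes nephrin of the slit diaphragm, averaged 11.40 ± 0.29 on the log2 intensity scale in OVE26 arrays and 11.90 ± 0.23 in FVB arrays (SD, n = 5 and 4). Podxl, the sialomucin podocalyxin, averaged 12.99 ± 0.04 in OVE26 arrays and 13.10 ± 0.02 in FVB arrays, and Synpo, the actin-binding synaptopodin, 12.89 ± 0.10 in OVE26 arrays and 13.03 ± 0.02 in FVB arrays. Wt1, a podocyte transcription factor, averaged 10.51 ± 0.25 in OVE26 arrays and 10.91 ± 0.08 in FVB arrays. None of these 4 passed the test (limma, adjusted p between 0.246 and 0.623). All 4 had lower means in OVE26 arrays. For Podxl, Synpo and Wt1 every OVE26 array lay below every FVB array, as for 2.78% of all probe sets. In a wider list of 28 podocyte genes, 25 (89.3%) had differences below 0, against 51.1% of all probe sets. Of the 28, 6 had every OVE26 array below every FVB array. Array medians lay between 5.07 and 5.15, and pairs of arrays correlated at 0.960 to 0.985 within OVE26, 0.980 to 0.989 within FVB and 0.964 to 0.984 between the groups. Xist lay above the mean of 3 Y-linked genes in 3 of 5 OVE26 arrays and 1 of 4 FVB arrays. The arrays are labelled as separate mice, so p-values rest on the spread between them, which also holds any spread between sorts and amplifications. In sorted bulk cells, fewer cells of a type and less RNA per cell cannot be told apart.

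None of the 34 probe sets of the adhesion genes passed the test between OVE26 and FVB podocytes: 0 were called higher and 0 lower, where 0.271% of all probe sets were called in either direction (88 higher and 34 lower; limma, adjusted p under 0.05 over 45037 probe sets). Adjusted p-values of the 34 lay between 0.344 and 0.985. Before adjustment, 1 of 34 (2.94%) had p under 0.05, against 13.7% of all probe sets. The differences of all 34 ranged from -0.36 to 0.97 on the log2 scale, with a median of -0.07 against -0.01 over all probe sets. Of the 34, 23 (67.6%) were below 0, against 51.1% of all probe sets; probe sets of a gene share transcripts and are not independent.

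The standard errors of these differences were somewhat smaller in the median than those of the array as a whole. The median standard error was 0.15 among the 34 probe sets and 0.17 among all. The 95% confidence interval lay within 1.5-fold in both directions for 27 of the 34 probe sets and within 2-fold for 32. For these a larger group difference lay outside the interval. Among all 45037 probe sets the numbers were 24547 and 37954, which are smaller shares. Among the 27022 at or above the 40th percentile they were 12590 and 21877, smaller shares again. These counts depend on the size of a difference as well as on its error. The probe sets whose interval reached beyond 2-fold were the brighter Itgb3 probe set and the Plaur probe set. Of the 34, 31 had a mean at or above the 40th percentile of all probe sets (4.41), and 1 probe set each of Itgb1, Itgb3 and Cd151 was dimmer. In simulated data of the same design, 52% of changes of 1 log2 unit and 91% of changes of 2 units were recovered. The simulation drew independent noise with the same SD in both groups and placed the changes on random probe sets. Smaller changes were not simulated. It therefore does not give the power for these 34, where spreads could differ between groups (brighter Itgb3 probe set: SD 1.01 in OVE26, 0.24 in FVB).

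**Figure D1:**
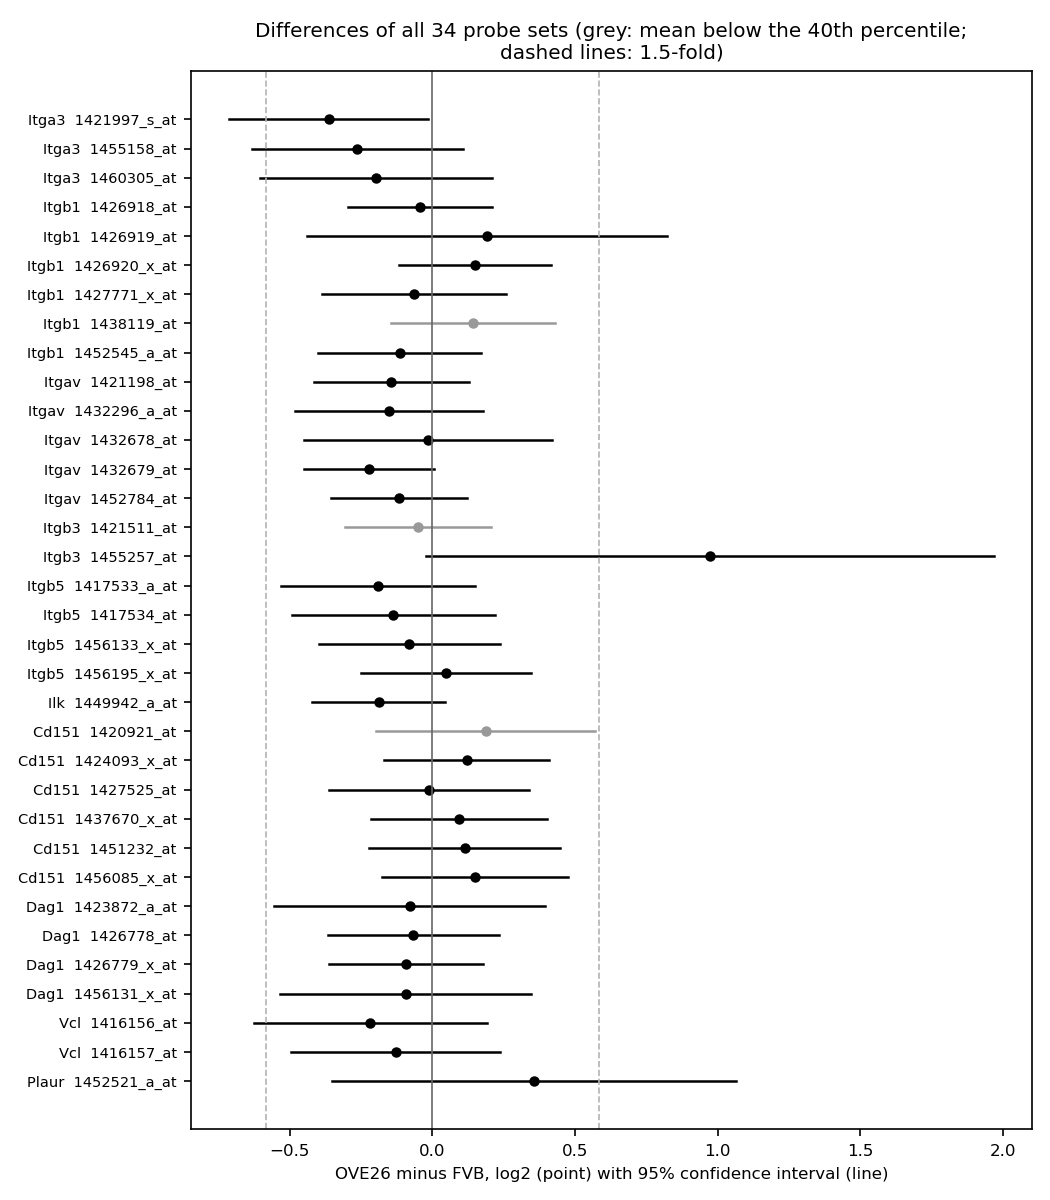
OVE26 minus FVB difference in log2 intensity for each of the 34 probe sets (horizontal axis, points) with its 95% confidence interval (lines), by gene; grey marks the 3 probe sets with a mean below the 40th percentile and dashed lines mark 1.5-fold. The points run from -0.36 for an Itga3 probe set to 0.97 for an Itgb3 probe set, and most intervals include 0.

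Itga3 encodes the alpha subunit of the laminin receptor. Its brightest probe set (1421997_s_at) read 10.10, 9.94, 9.69, 10.03 and 10.01 in OVE26 arrays 1 to 5, against 10.37, 10.28, 10.68 and 9.93 in FVB arrays 1 to 4. FVB 4 lay among the OVE26 arrays and the other 3 FVB arrays above all of them, so the groups overlapped through that array. The means were 9.95 ± 0.16 in OVE26 and 10.32 ± 0.31 in FVB (SD, n = 5 and 4), a difference of -0.36 ± 0.16 (SE) with an unadjusted p of 0.0427 and an adjusted p of 0.344 (limma). In fold terms OVE26 over FVB had a 95% interval of 0.61 to 0.99. Leaving out 1 array gave -0.24 without FVB 3 to -0.49 without FVB 4. With a marker score added to the fit it was -0.13 for loop, distal tubule and collecting duct markers, -0.15 for macrophage markers and -0.22 for podocyte markers, and it was not called in any of these. The group means of these scores differed too, so such a fit cannot fully tell group from score. The second probe set (1455158_at) read 9.98, 9.87, 9.51, 9.54 and 9.65 in OVE26 arrays, against 10.05, 9.85, 10.35 and 9.64 in FVB arrays. The third (1460305_at) read 9.87, 9.63, 9.28, 9.37 and 9.30 in OVE26 arrays, against 9.82, 9.56, 10.07 and 9.31 in FVB arrays. Their differences were -0.26 (adjusted p = 0.536) and -0.20 (adjusted p = 0.692), in the direction of the first, and FVB 3 was the highest array in all 3. The 3 probe sets followed each other over the 9 arrays, with r between 0.81 and 0.97. The range was 0.75 to 0.95 for Itgb5 and 0.84 to 0.97 for Dag1, and r was 0.89 for the 2 of Vcl. It was wider for Itgb1 (0.19 to 0.91 among 5 probe sets), and for Itgav and Cd151 as given below.

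Itgb1 encodes the beta subunit shared by alpha3 beta1 and most other laminin and collagen receptors. Its brightest probe set (1452545_a_at) read 11.26, 10.76, 11.11, 11.17 and 11.05 in OVE26 arrays, against 11.25, 10.97, 11.30 and 11.22 in FVB arrays. The groups overlapped nearly completely, with OVE26 2 and FVB 2 as the lowest array of each. The difference was -0.11 ± 0.13 (SE; adjusted p = 0.763, limma), and the 95% interval of OVE26 over FVB ran from 0.76 to 1.13. The next brightest (1426918_at) had a difference of -0.04 (adjusted p = 0.914). The other 4 probe sets of the gene had differences of -0.06 to 0.19, and 3 of the 6 were above 0. Within each array, Itga3 minus Itgb1 was taken after each gene was centred on its mean over all arrays. This centred difference averaged -0.11 ± 0.21 in OVE26 and 0.14 ± 0.30 in FVB on the log2 scale. The groups overlapped, and the sign does not tell which gene had the higher level.

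Itgav, the alpha subunit that pairs with the beta3 and beta5 chains, read 11.08, 11.27, 11.00, 10.93 and 10.91 in OVE26 arrays on its brightest probe set (1452784_at), against 11.22, 11.08, 11.20 and 11.13 in FVB arrays. OVE26 2 was the highest of all 9 arrays and OVE26 1 equalled FVB 2 to 2 decimals, so the groups overlapped. The difference was -0.12 ± 0.11 (SE; adjusted p = 0.685, limma). All 5 Itgav probe sets had differences below 0, from -0.22 to -0.02, and each of their intervals lay within 1.5-fold. They did not all follow each other over the 9 arrays, with r between -0.48 and 0.83. The smallest p among them belonged to 1432679_at (-0.22, adjusted p = 0.379), which read 4.94, 4.87, 4.91, 5.10 and 5.00 in OVE26 arrays, against 5.34, 5.09, 5.22 and 5.09 in FVB arrays. OVE26 4 lay just above the lowest FVB arrays and the other 4 OVE26 arrays lay below all FVB arrays.

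Itgb5, the beta chain of the vitronectin receptor alphav beta5, read 11.01, 11.03, 10.74, 11.16 and 11.15 in OVE26 arrays (1456133_x_at), against 11.09, 10.96, 11.43 and 10.90 in FVB arrays. OVE26 3 was the lowest and FVB 3 the highest array, and the other arrays of both groups lay among each other. The difference was -0.08 ± 0.14 (SE; adjusted p = 0.860, limma). The other 3 probe sets had differences of -0.19, -0.14 and 0.05, with adjusted p-values of 0.644, 0.773 and 0.921, and all 4 intervals lay within 1.5-fold.

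Itgb3, the beta chain of the receptor that Plaur activates, had the largest difference and the widest spread of the 10 genes. Its brighter probe set (1455257_at) read 5.75, 5.93, 6.96, 8.06 and 5.78 in OVE26 arrays, against 5.36, 5.60, 5.31 and 5.82 in FVB arrays. OVE26 4 and OVE26 3 stood above all other arrays, while OVE26 1 and OVE26 5 lay below FVB 4, so the groups overlapped. The means were 6.50 ± 1.01 in OVE26 and 5.52 ± 0.24 in FVB (SD, n = 5 and 4), a difference of 0.97 ± 0.45 (SE) with an unadjusted p of 0.0542 and an adjusted p of 0.375 (limma). The 95% interval of OVE26 over FVB ran from 0.99-fold to 3.91-fold. The difference was 0.58 without OVE26 4 and 0.30 without OVE26 3 and OVE26 4. The dimmer probe set (1421511_at) did not follow it: it read 3.70 to 4.07 in OVE26 arrays and 3.82 to 4.15 in FVB arrays, with a difference of -0.05.

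**Figure D2:**
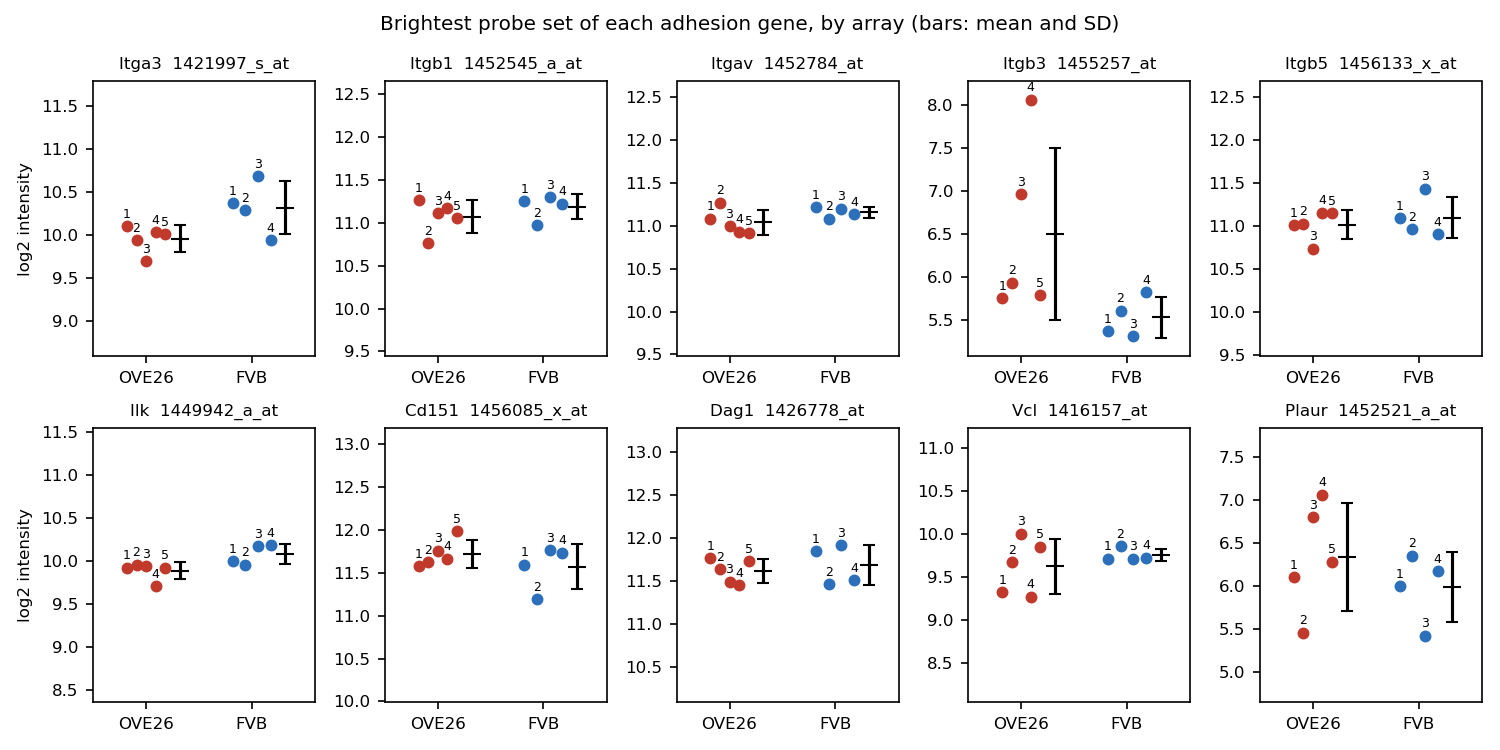
Log2 intensity (vertical axis) of the brightest probe set of each of the 10 genes in every array, OVE26 on the left and FVB on the right of each panel; small digits are array numbers, and bars give the group mean and SD. OVE26 3 and OVE26 4 are the highest arrays for Itgb3 (6.96 and 8.06) and for Plaur (6.80 and 7.06), and the groups overlap for all genes except Ilk.

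Plaur encodes the receptor of the protease urokinase. Its only probe set (1452521_a_at) read 6.10, 5.45, 6.80, 7.06 and 6.28 in OVE26 arrays, against 5.999, 6.35, 5.42 and 6.17 in FVB arrays. OVE26 3 and OVE26 4 were the highest, as for Itgb3, and the other 3 OVE26 arrays lay within the FVB range. The difference was 0.36 ± 0.32 (SE; adjusted p = 0.684, limma), with a 95% interval of 0.78-fold to 2.09-fold. Without OVE26 3 and OVE26 4 it was -0.04.

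Ilk, the kinase-like adaptor that binds the beta1 tail, has a single probe set (1449942_a_at), which read 9.92, 9.96, 9.94, 9.71 and 9.92 in OVE26 arrays, against 9.996, 9.96, 10.18 and 10.18 in FVB arrays. It was the only 1 of the 34 probe sets on which every OVE26 array lay below every FVB array, a pattern that 2.78% of all probe sets had. The gap between OVE26 2 and FVB 2 was smaller than the second decimal. The opposite pattern, every OVE26 array above every FVB array, was seen in 0 of the 34 and in 2.67% of all probe sets. The means of Ilk were 9.89 ± 0.10 in OVE26 and 10.08 ± 0.12 in FVB (SD, n = 5 and 4), a difference of -0.19 ± 0.10 (SE; adjusted p = 0.471, limma).

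Vcl encodes vinculin, which joins talin to actin under tension. Its brighter probe set (1416157_at) read 9.32, 9.67, 10.004, 9.27 and 9.85 in OVE26 arrays, against 9.71, 9.86, 9.71 and 9.73 in FVB arrays. OVE26 arrays lay on both sides of the narrow FVB range, with an SD of 0.32 in OVE26 against 0.07 in FVB. The difference was -0.13 ± 0.16 (SE; adjusted p = 0.795, limma), and the other probe set had -0.22 (adjusted p = 0.662).

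Cd151, the tetraspanin that holds alpha3 beta1 in the membrane, was the member of the laminin anchor with most differences above 0. Its brightest probe set (1456085_x_at) read 11.58, 11.62, 11.76, 11.66 and 11.99 in OVE26 arrays, against 11.60, 11.19, 11.77 and 11.74 in FVB arrays. The highest array was OVE26 5 and the lowest FVB 2, and the others overlapped. The difference was 0.15 ± 0.15 (SE; adjusted p = 0.715, limma), and 5 of its 6 probe sets lay above 0, within -0.01 to 0.19. The probe sets did not all follow each other over the arrays, with r between -0.57 and 0.94 among the 5 compared. Within each array, Itga3 minus Cd151, with each gene again centred on its mean over all arrays, averaged -0.23 ± 0.25 in OVE26 and 0.29 ± 0.39 in FVB. The groups differed by -0.51 on the log2 scale and overlapped. Here too the sign does not tell which gene had the higher level.

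Dag1 encodes dystroglycan, the laminin receptor outside the integrin family. Its brightest probe set (1426778_at) read 11.77, 11.63, 11.49, 11.45 and 11.73 in OVE26 arrays, against 11.85, 11.46, 11.92 and 11.51 in FVB arrays. Both groups spanned the same range apart from FVB 1 and FVB 3, which were highest. The difference was -0.07 ± 0.13 (SE; adjusted p = 0.880, limma), and all 4 probe sets lay between -0.09 and -0.07.

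The members varied among themselves in a few patterns that did not follow the groups alone. Over the 9 arrays, of 45 pairs of brightest probe sets, the steepest positive relations were Itga3 with Itgb5 (r = 0.79, rho = 0.62, exact permutation p = 0.0137 and 0.0857) and Itgb3 with Plaur (r = 0.79, rho = 0.63, exact permutation p = 0.00882 and 0.0760). Neither held without the 2 arrays farthest from the median of the gene named first: r was 0.05 for Itga3 with Itgb5 without OVE26 3 and FVB 3, and 0.20 for Itgb3 with Plaur without OVE26 3 and OVE26 4. Both relations therefore rest on those arrays. Itgav ran against Plaur (r = -0.83, rho = -0.81, exact permutation p = 0.00686 and 0.0108), and r was -0.91 without OVE26 2 and OVE26 5. Dag1 also ran against Plaur (r = -0.69, rho = -0.85, exact permutation p = 0.0419 and 0.00607), with r = -0.54 without FVB 1 and FVB 3. No pair passed after adjustment over the 45 (smallest adjusted p = 0.198 for r and 0.162 for rho, permutation). The arrays of both groups enter these values, and each group alone has fewer than 6.

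**Figure D3:**
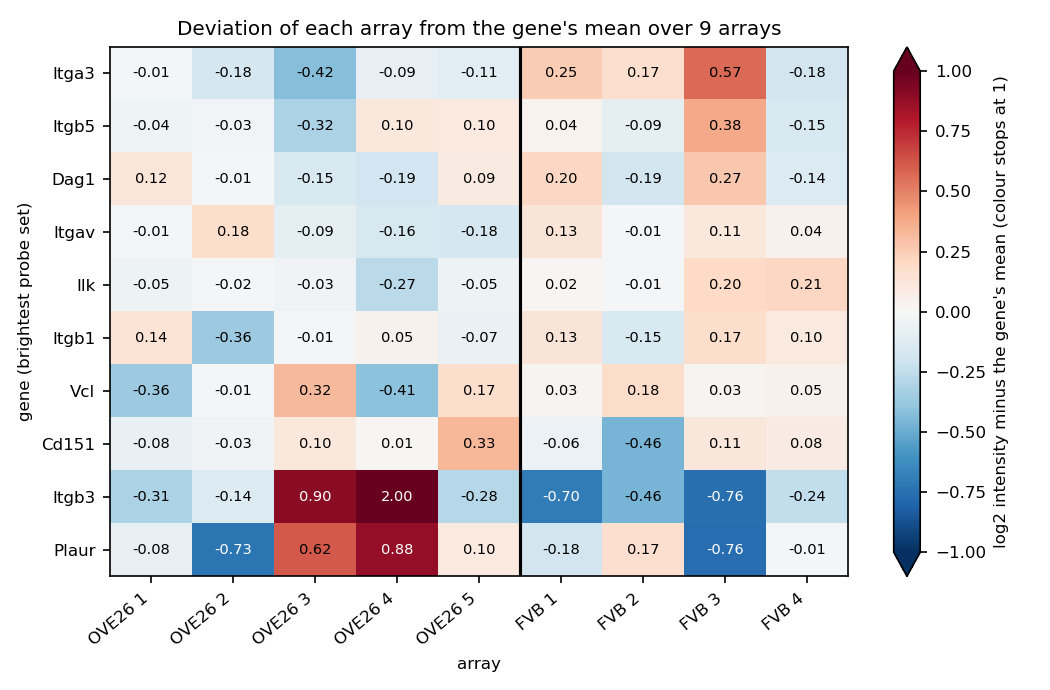
Deviation of the brightest probe set of each of the 10 genes (rows) from its mean over the 9 arrays (columns, OVE26 left, FVB right), on the log2 scale as colour. OVE26 4 and OVE26 3 stand out for Itgb3 and Plaur, and FVB 3 for Itga3 and Itgb5.

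The genes whose pattern was most like that of the brightest Itga3 probe set, out of 12350 genes with a mean at or above the 40th percentile, were Glg1 (r = 0.967), Tacc2 (0.949), 9530068E07Rik (0.940), Zfp106 (0.924) and Hipk3 (0.915), over 9 arrays and as a description. Glg1, a Golgi glycoprotein, read 9.84, 9.70, 9.46, 9.72 and 9.67 in OVE26 arrays, against 10.06, 9.82, 10.18 and 9.66 in FVB arrays. It shared with Itga3 the low FVB 4 and the high FVB 3, and none of the 5 genes passed the test (limma, adjusted p between 0.30 and 0.73).

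Levels of Itgb3 and Plaur were read beside the levels of cell type markers, because markers of other cells had signal in the sorts. Each score is the mean log2 level of a marker list with each gene centred over the arrays. Correlations with the scores were taken and permuted over all 9 arrays without regard to group. Where a gene and a score both differ between the groups, r, rho and their p-values also hold that difference. The podocyte score (28 genes) was 0.12, -0.05, -0.19, -0.39 and -0.07 in OVE26 arrays, against 0.22, 0.00, 0.26 and 0.10 in FVB arrays. The difference of -0.26 had an exact permutation p of 0.0476, which was 0.0952 after adjustment over the 8 scores. OVE26 4, the array with the most Itgb3, had the lowest podocyte score. Across the 9 arrays Itgb3 ran against this score (r = -0.92, rho = -0.88, exact permutation p = 0.000242 and 0.00307). Adjusted over the 80 pairs of gene and score, the p was 0.0174 for r and 0.0820 for rho, and r was -0.81 without OVE26 4 and FVB 3. Plaur had r = -0.77 and rho = -0.80 with the podocyte score (exact permutation p = 0.0157 and 0.0138, adjusted 0.130 and 0.0851), and r was -0.40 without the same arrays. With the podocyte score as a covariate the OVE26 minus FVB difference of Itgb3 was -0.12 and that of Plaur -0.32. Because the group means of the score differed, this fit cannot fully tell group from score.

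Among the other members, r with the podocyte score ran from 0.80 for Ilk to -0.09 for Cd151, and none passed after adjustment. It was 0.38 for Itgb1, 0.32 for Itgb5 and 0.17 for Vcl. Ilk had r = 0.80 and rho = 0.72 with it (exact permutation p = 0.0122 and 0.0369, adjusted 0.122 and 0.155), and r was 0.37 without OVE26 4 and FVB 3. Dag1 had r = 0.74 and rho = 0.80 (exact permutation p = 0.0214 and 0.0138, adjusted 0.130 and 0.0851), with r = 0.56 without the same arrays. Itgav had r = 0.69 and rho = 0.65 (exact permutation p = 0.0402 and 0.0631, adjusted 0.138 and 0.172), with r = 0.50 without these arrays. The brightest Itga3 probe set had r = 0.66 and rho = 0.67 (exact permutation p = 0.0536 and 0.0589, adjusted 0.153 and 0.172), with r = 0.76 without them. With the podocyte score as a covariate the difference of Ilk was -0.08, and those of the Itga3 probe sets 1421997_s_at, 1455158_at and 1460305_at were -0.22, 0.04 and 0.12. All 4 Dag1 probe sets then had differences above 0, between 0.11 and 0.30, where they were below 0 on group alone. None of these differences was called, with or without the score. Here too the fit cannot fully tell group from score, so the changes of sign do not show what remains at equal podocyte content.

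The parietal epithelial score (11 genes) was higher by 1.14 in OVE26 arrays (exact permutation p = 0.00794, the smallest that 126 splits allow, adjusted 0.0317), as was the score of loop, distal tubule and collecting duct markers (28 genes) by 1.26 (exact permutation p = 0.00794, adjusted 0.0317). Itgb3 had r = 0.83 and rho = 0.82 with the parietal score (exact permutation p = 0.000587 and 0.0108, adjusted 0.0174 and 0.0851), and r was 0.69 without OVE26 4 and FVB 3. Ilk ran the other way with it (r = -0.89, rho = -0.90, exact permutation p = 0.000653 and 0.00203, adjusted 0.0174 and 0.0811), and r was -0.71 without the same arrays. The groups did not overlap for the parietal score (lowest OVE26 array 0.13, highest FVB array -0.15) or for Ilk. The relation of Ilk with this score therefore also holds the group difference. The summed linear intensity of the parietal list was 5083 to 10370 in OVE26 arrays and 2897 to 5028 in FVB arrays, and none of its 11 genes had a mean below the 25th percentile of all probe sets. The part of these cells in the levels of Itgb3 and Ilk was not tested.

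Macrophages and platelets also use beta3 integrin or the urokinase receptor. The macrophage score (27 genes) was 0.14, -0.25, 0.76, 0.33 and 0.32 in OVE26 arrays, against -0.38, -0.17, -0.47 and -0.29 in FVB arrays, a difference of 0.59 (exact permutation p = 0.0238, adjusted 0.0635). OVE26 3 was highest and OVE26 2 lay within the FVB range. Its summed linear intensity was 1172 to 4083 in OVE26 arrays and 1219 to 1704 in FVB arrays. Means below the 25th percentile (3.34) were found for 6 of the 27 genes: Adgre1, Cd163, C1qc, Ccr2, Itgam and Ms4a7. Of the 27, 22 had differences above 0 and 5 below, and 0 passed the test. For 7 of the 27 every OVE26 array lay above every FVB array, against 2.67% of all probe sets, and 0 had the opposite order. The largest difference of the list was that of Ctss, also with separate groups (2.61, adjusted p = 0.0965, limma). The list was not uniform, as 2 genes chosen after their values were seen show: the mannose receptor Mrc1 read 6.80, 5.32, 7.78, 6.94 and 6.92 in OVE26 arrays, against 7.56, 8.87, 7.72 and 8.24 in FVB arrays (difference -1.35, adjusted p = 0.225, limma), and Csf1r, the receptor of the macrophage growth factor, had a difference of 0.03. Plaur had r = 0.77 and rho = 0.83 with the score (exact permutation p = 0.0168 and 0.00827, adjusted 0.130 and 0.0827), with r = 0.56 without OVE26 3 and OVE26 4, and Itgb3 r = 0.69 and rho = 0.73 (exact permutation p = 0.0361 and 0.0311, adjusted 0.138 and 0.138), with r = 0.53 without them. When the fit also held the macrophage score, the difference was 0.22 for Itgb3 and -0.56 for Plaur, 0.06 and 0.14 for the Itga3 probe sets 1455158_at and 1460305_at, and 0.10 to 0.30 for the 4 of Dag1, none of them called. The macrophage score differed between the groups by 0.59, so this fit also cannot fully tell group from score. Among the other members, r with the macrophage score ran from -0.81 for Itgav to 0.31 for Cd151. Itgav had rho = -0.81 (exact permutation p = 0.00982 and 0.0108, adjusted 0.122 and 0.0851), and r was -0.85 without OVE26 3 and OVE26 4. For Itga3 r was -0.71, and for Ilk -0.63 with rho = -0.83. No member passed with this score after adjustment. The platelet and red cell score (12 genes) differed by 0.15 (exact permutation p = 0.294, adjusted 0.470). Its summed intensity was 333 to 1360 in OVE26 arrays and 218 to 395 in FVB arrays, with 5 of the 12 genes below the 25th percentile. Slc4a1, an anion exchanger also held by the list of loop, distal tubule and collecting duct markers, made up 1166 of the highest of these sums, in OVE26 2. Without it, an alternative added after seeing the data, the sums were 179 to 263 in OVE26 arrays and 193 to 261 in FVB arrays, and the score differed by 0.04 (exact permutation p = 0.786). The part of these cells in the levels of Itgb3 and Plaur was not tested. Of the other scores, the mesangial one followed Plaur (r = 0.82, rho = 0.95, exact permutation p = 0.00627 and 0.000353, adjusted 0.10 and 0.0282), with r = 0.81 without OVE26 3 and FVB 3, and it differed between the groups by 0.13 (exact permutation p = 0.643, adjusted 0.857). The platelet and red cell score ran against Dag1 (r = -0.89, rho = -0.85, exact permutation p = 0.00198 and 0.00607, adjusted 0.0395 and 0.0827), with r = -0.82 without the same arrays. Without Slc4a1 in the list, r with Dag1 was -0.89 and rho -0.92 (exact permutation p = 0.00257 and 0.00131, not adjusted), and r was -0.87 without OVE26 3 and OVE26 4.

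**Figure D4:**
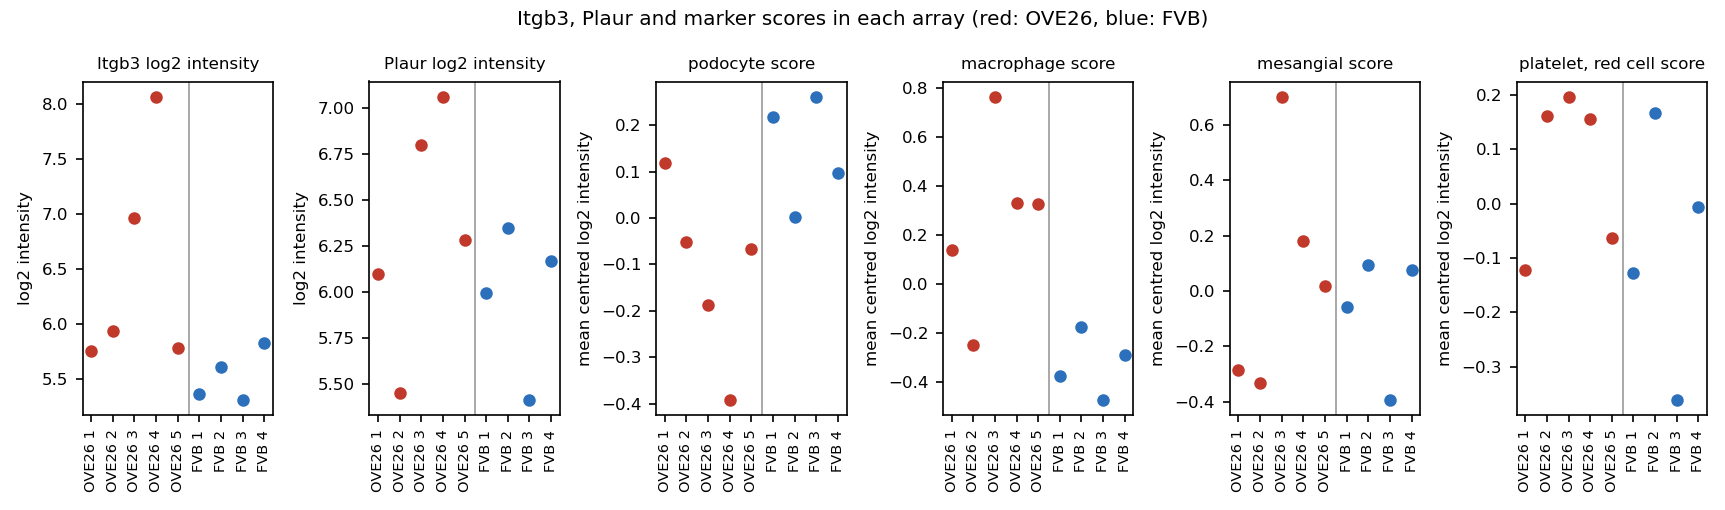
Log2 intensity of Itgb3 and Plaur and 4 marker scores (podocyte, macrophage, mesangial, platelet with red cell; mean centred log2 intensity) on the vertical axes, for each array along the horizontal axes, with OVE26 in red left of the line and FVB in blue right of it; each panel has its own scale. OVE26 4 combines the highest Itgb3 level (8.06) with the lowest podocyte score (-0.39), and OVE26 3 has the highest macrophage score (0.76).

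Around the members, 6 lists of the wider pathway were counted by the brightest probe set of each gene, and 0 genes of any list passed the test, against the same 0.271% of all probe sets. Among 20 other integrin subunits the median difference was 0.15, and 2 genes had an unadjusted p under 0.05; among 34 adaptors of adhesion sites it was -0.12, with 6. It was 0.16 for 23 matrix ligands (5 genes), 0.13 for 17 tetraspanins and membrane partners (6 genes), 0.13 for 13 genes of the urokinase system (4 genes) and 0.04 for 25 genes of the dystroglycan complex and its glycosylation (5 genes). Over all probe sets the median was -0.01, and 13.7% had an unadjusted p under 0.05. The score of loop, distal tubule and collecting duct markers also differed, by 1.26. It was 0.19, 1.40, 0.51, 0.435 and 0.27 in OVE26 arrays, against -0.79, -0.05, -1.26 and -0.70 in FVB arrays. The part of tubule and other cells in the levels of the pathway genes was not tested.

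Of the other integrins, Itgb8, the beta chain that with alphav activates TGF-beta, read 7.14, 6.55, 6.75, 6.83 and 7.04 in OVE26 arrays, against 7.30, 7.30, 7.88 and 7.70 in FVB arrays (difference -0.68, adjusted p = 0.133, limma). Itgb6, its epithelial relative, read 5.73, 5.997, 6.11, 5.73 and 6.64 in OVE26 arrays, against 5.23, 5.68, 5.01 and 5.21 in FVB arrays (difference 0.76, adjusted p = 0.156). The groups did not overlap for either alphav partner, in opposite directions. Itga1, a collagen receptor chain, had a difference of 0.66 and Itga6, a laminin receptor chain, of 0.65, with overlapping groups and adjusted p-values of 0.366 and 0.377.

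Among the adaptors, the focal adhesion kinase relative Ptk2b read 5.92, 5.78, 6.31, 6.15 and 6.50 in OVE26 arrays, against 5.29, 5.35, 4.66 and 5.56 in FVB arrays (difference 0.92, adjusted p = 0.113, limma). Lims2, a PINCH protein that binds ILK, read 8.03, 8.90, 8.45, 8.84 and 8.67 in OVE26 arrays, against 9.05, 9.12, 9.24 and 9.46 in FVB arrays (difference -0.64, adjusted p = 0.170). Groups were separate for both, as they were for Crkl, an SH2 and SH3 adaptor (-0.55, adjusted p = 0.145), and Fermt2, the kindlin that activates beta1 integrins (-0.34, adjusted p = 0.251). Of the 34 adaptors, 4 had every OVE26 array below every FVB array and 1 had the opposite order, against 2.78% and 2.67% of all probe sets; the 4 named here include 3 of the 4 and the 1.

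Among the matrix ligands, Lama5, the alpha chain of the laminin that alpha3 beta1 binds in the mature glomerular basement membrane, read 9.998, 10.07, 9.69, 10.12 and 10.18 in OVE26 arrays, against 10.55, 10.28, 10.74 and 10.59 in FVB arrays (difference -0.53, adjusted p = 0.144, limma). Fibronectin (Fn1) read 5.56, 6.16, 6.08, 5.61 and 6.84 in OVE26 arrays, against 5.23, 5.28, 4.95 and 4.73 in FVB arrays (difference 1.00, adjusted p = 0.139). The groups were separate for both genes. The groups overlapped for Thbs1, a matricellular ligand of several integrins (1.65, adjusted p = 0.154), and for Lamb1, a laminin beta chain of the immature basement membrane (0.94, adjusted p = 0.236).

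Of the membrane partners, Cd9, a tetraspanin related to Cd151, read 7.12, 7.67, 7.81, 7.77 and 7.76 in OVE26 arrays, against 5.86, 6.84, 5.98 and 6.74 in FVB arrays. Every OVE26 array lay above every FVB array, and the difference of 1.27 ± 0.24 (SE) had an adjusted p of 0.0747 (limma). Tspan8 had a difference of 1.11 (adjusted p = 0.115) and the hyaluronan receptor Cd44 of 0.80 (adjusted p = 0.133), with FVB 2 reaching the OVE26 range in each. Slc3a2, the CD98 heavy chain that binds beta1 integrin tails, had -0.56 with separate groups (adjusted p = 0.170).

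In the urokinase system, St14, the membrane protease matriptase, read 6.81, 7.41, 6.80, 7.05 and 6.57 in OVE26 arrays, against 5.90, 6.45, 4.96 and 5.52 in FVB arrays (difference 1.22, adjusted p = 0.115, limma). The groups were separate. The protease hepsin (Hpn, 0.52) and the sphingomyelin phosphodiesterase relative Smpdl3b (0.64) both had adjusted p = 0.192 with overlapping groups. The tissue plasminogen activator Plat had -0.24 with separate groups (adjusted p = 0.335).

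In the dystroglycan complex, sarcospan (Sspn) read 7.79, 7.61, 7.52, 7.37 and 7.68 in OVE26 arrays, against 6.33, 7.11, 6.79 and 6.57 in FVB arrays. It had the smallest adjusted p of the 6 lists (0.0677, limma) with separate groups, at a difference of 0.89 ± 0.16 (SE). Delta-sarcoglycan (Sgcd, 1.29, adjusted p = 0.143) and the glycosyltransferase Large2 (0.63, adjusted p = 0.254) had overlapping groups, and utrophin (Utrn, -0.24, adjusted p = 0.336), the dystrophin relative of the complex, separate ones. Sspn, Cd9, Tspan8 and Cd44 were called under some other settings, given with the dependence on processing.

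**Figure D5:**
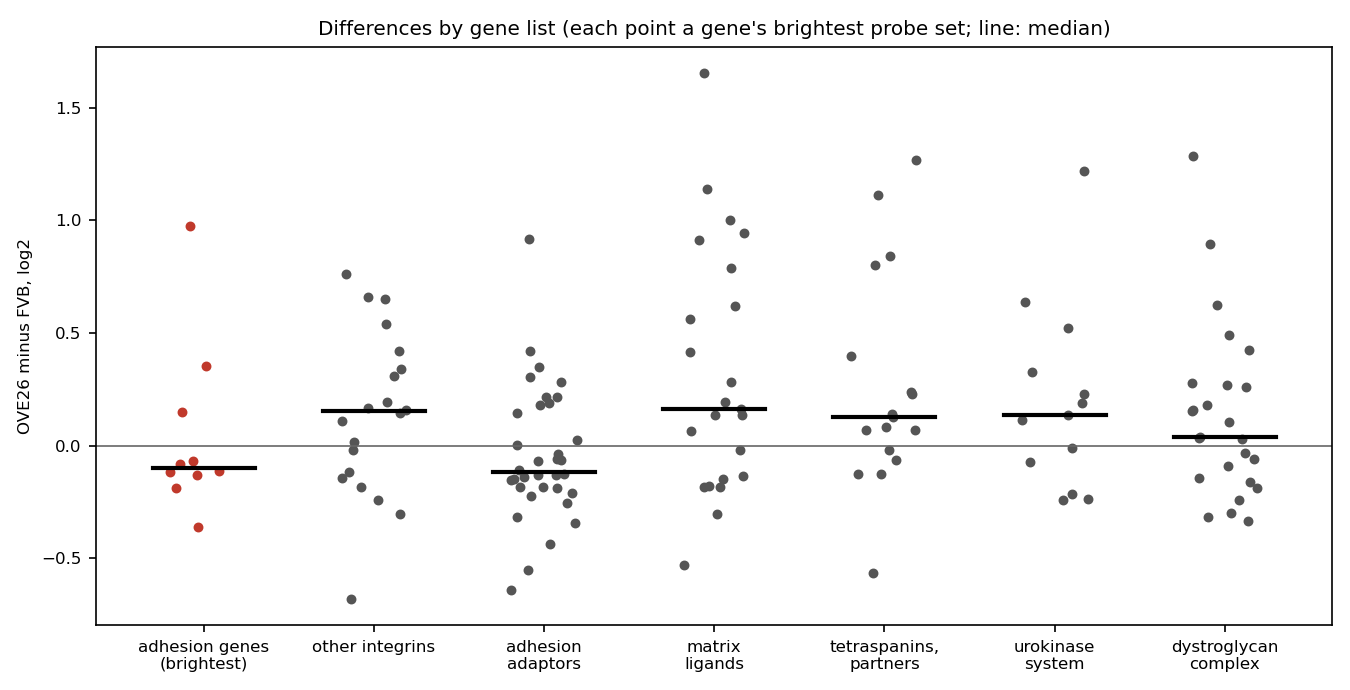
OVE26 minus FVB difference in log2 intensity (vertical axis) of each of the 10 adhesion genes (red) and of each gene of the 6 pathway lists (grey), 1 point per gene by its brightest probe set, with the list's median as a line. No point passed the test; the medians of the pathway lists lie between -0.12 for the adaptors and 0.16 for the matrix ligands.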

How the data were processed

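Podocyte RNA of 5 OVE26 and 4 FVB mice was hybridised to 9 arrays. The authors' deposited intensity values, 1 per probe set and array, are linear, judged from their range; per the submitters' processing notes the authors used RMA and Partek, with versions and settings not given in the sources used here. RMA pools information across arrays, so a probe set's values are not wholly independent between arrays. Log2 was taken here. The table holds 45101 probe sets; 64 controls were left out. Symbols come from the platform annotation (1 symbol for 34945 probe sets, several for 932, none for 9160). Differences were fitted on group alone in limma 3.58.1 (R 4.3.3; lmFit, then eBayes with 2.91 prior degrees of freedom), 2-sided, adjusted by Benjamini-Hochberg over 45037 probe sets, threshold 0.05, with no filter on dim probe sets. The fit was tested on simulated data. Figures used Python 3.11.15 and matplotlib 3.10.9. No 2 arrays shared over 4.08% of identical values.

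The members and lists were chosen with earlier results of these data known. Named were all member probe sets and, in each of 6 pathway lists where none passed, the 4 genes with the smallest p; the 5 genes most like Itga3; and podocyte genes, of which 1 is not reported here. Gene scores were compared by 2-sided exact permutation over 126 splits, and correlations by 2-sided exact permutation of the 9 arrays. Replicate numbers did not pair the arrays. Alternatives were other normalizations, probe set summaries, covariates, weights, thresholds and leaving out arrays. The number of arrays limits the precision.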

Additional observations from a re-analysis of the deposited data

Results flagged for a closer look

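Among 84 groups of arrays (each member probe set and each score in each genotype), 6 held an array far from the others of its group by Dixon's test at the 95% level, where chance alone flags about 5% of groups. The Itgb1 probe set 1426918_at read 10.7155 in OVE26 2, against 10.96 to 11.03 in the other OVE26 arrays. Ilk read 9.7063 in OVE26 4, against 9.92 to 9.96 in the others. The Cd151 probe set 1427525_at read 6.8061 in OVE26 2, against 7.29 to 7.47. The Vcl probe set 1416157_at read 9.8603 in FVB 2, against 9.71 to 9.73 in the other FVB arrays. The score of loop, distal tubule and collecting duct markers was 1.3953 in OVE26 2, against 0.19 to 0.51 in the other OVE26 arrays, and the proximal tubule score was -2.061 in OVE26 2, against 0.21 to 0.56. OVE26 2 thus accounts for 4 of the 6.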

How the results depend on the processing

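The count of adhesion probe sets called was 0 under every alternative run. Of 731 differences of single member probe sets under alternatives, 69 had another sign and 0 were called; 10 of the 34 kept their sign throughout. Counts over all probe sets (88 higher, 34 lower) moved more: 218 and 122 with array weights, 32 and 8 with a sex covariate, 3 and 0 with the podocyte score as covariate, 0 and 0 with that of loop, distal tubule and collecting duct, 0 and 1 with the macrophage score, 0 and 0 without moderation of variances, 249 and 151 at a threshold of 0.1, and 0 and 0 at 0.01. Leaving out 1 array gave 0 to 323 higher and 0 to 101 lower: both were 0 without OVE26 3, FVB 3 or FVB 4, 1 and 0 without FVB 1, 49 and 21 without OVE26 1, 85 and 23 without OVE26 2, 39 and 9 without OVE26 4, 33 and 4 without OVE26 5, and 323 and 101 without FVB 2. Without OVE26 3 and OVE26 4, chosen after seeing the data, the counts were 2 and 0. The replicate number as a block gave 0 and 0; same-numbered arrays correlated at 0.16, 0.04, -0.24 and 0.00, so the numbers were not taken as pairs. In the pathway lists 0 genes were called, against 1 with only the brightest probe set of each gene tested (Sspn), 3 with the mean of each gene's probe sets (Cd44, Cd9 and Tspan8), 1 with array weights (Sspn), 2 at a threshold of 0.1 (Cd9 and Sspn) and, leaving out 1 array, 0 to 6 (6 without FVB 2: Cd9, Sspn, St14, Lamb1, Tspan8 and Cd44). The causes were not tested.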
